A study of Mus musculus with 2 samples.

Results

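The Kruppel-like factors described here are 10 genes, Klf2, Klf3, Klf4, Klf5, Klf6, Klf7, Klf9, Klf10, Klf13 and Klf15, chosen by gene symbol from the 32285 genes counted in each of 2 single-cell libraries. The gene list of the libraries holds 17 Klf symbols, and all 10 chosen genes had a single matching entry. Levels were read in each cell class that could be named from marker genes.

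The libraries were made from mononucleated cells of hindlimb muscle (quadriceps and gastrocnemius) of old C57Bl/6J female mice aged 24 months, wild type in both groups, with live cells sorted by exclusion of propidium iodide and no gate on a cell type. In the ATRA+agonist group the muscles of both limbs received 3 injections of all-trans retinoic acid (ATRA) together with CD3254, an agonist of the retinoid X receptor RXRα, and BMS961, an agonist of the retinoic acid receptor RARγ. In the DMSO vehicle group the muscles received the solvent on the same schedule. Each library holds the cells of 2 mice, joined before droplet capture, so each group is 1 library, the mice within it cannot be told apart, and no difference between the groups has a replicate check.

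Kruppel-like factors are transcription factors with a conserved zinc-finger domain at the carboxyl end that binds CACCC boxes and GC-rich sequences, and their activating or repressing action depends on the remainder of the protein. Klf2 and Klf4 are induced in endothelium by laminar flow through the kinase MEK5, the kinase ERK5 and MEF2 factors, and Klf2 also keeps lymphocytes quiescent. Klf9 and Klf15 are induced by glucocorticoids, Klf10 is an early target of TGF-beta, and Klf4 and Klf6 respond early to serum, injury or tissue dissociation. Klf15 controls amino acid and lipid use in muscle, Klf5 acts in epithelia and smooth muscle, Klf3 is a repressor, and Klf7 acts in neurons and adipose precursors.

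The libraries held 10444 (ATRA+agonist) and 17394 (DMSO vehicle) barcodes with 65197625 and 109343486 unique molecular identifiers (UMIs, tags that mark single captured RNA molecules). After filtering, 6907 and 6953 cells remained, with median depths of 4698 and 4843 UMIs. Of the barcodes, 43 occurred in both libraries, 9 of them among the kept cells. Clustering gave 31 clusters, of which 28 were named into 15 classes, and the 8 classes with at least 100 cells in each library were compared. In every compared class all markers of the class name were detected in both libraries. Marker transcripts of red blood cells were higher in the DMSO vehicle library in each class, with sums of 244 to 553 UMIs per 1000000 UMIs of the class (CPM) against 798 to 1445 CPM, and their part in the results below was not tested. A level below is the sum of a gene's UMIs over the cells of a class, in CPM. A ratio is the log2 of the ATRA+agonist level divided by the DMSO vehicle level, with a 95% interval that covers counting error only and not the difference between animals. A gene was called higher or lower where its ratio passed 1.5-fold and it had at least 50 UMIs over both libraries.

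The bases before the transcription starts are shown for Klf2 and Klf4, the pair that responds to flow, and for Klf9 and Klf15, the pair that responds to glucocorticoids, since these pairs organize the results. Each stretch is the 250 bases before the RefSeq start on GRCm38.p6, written 5′ to 3′ on the strand of the gene. Capitals mark CACCC boxes and the GC box GGGCGG on either strand, the letters that family members themselves bind.
Klf2: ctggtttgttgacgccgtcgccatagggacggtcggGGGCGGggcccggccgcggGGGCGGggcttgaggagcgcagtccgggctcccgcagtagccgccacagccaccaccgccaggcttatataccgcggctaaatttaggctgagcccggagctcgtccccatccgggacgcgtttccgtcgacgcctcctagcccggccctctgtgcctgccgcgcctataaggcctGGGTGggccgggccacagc
Klf4: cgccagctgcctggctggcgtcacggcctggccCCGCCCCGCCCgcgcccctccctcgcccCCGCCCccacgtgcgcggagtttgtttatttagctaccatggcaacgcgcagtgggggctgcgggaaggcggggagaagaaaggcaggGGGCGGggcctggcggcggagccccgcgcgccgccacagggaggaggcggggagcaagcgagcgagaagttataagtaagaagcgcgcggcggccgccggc
Klf9: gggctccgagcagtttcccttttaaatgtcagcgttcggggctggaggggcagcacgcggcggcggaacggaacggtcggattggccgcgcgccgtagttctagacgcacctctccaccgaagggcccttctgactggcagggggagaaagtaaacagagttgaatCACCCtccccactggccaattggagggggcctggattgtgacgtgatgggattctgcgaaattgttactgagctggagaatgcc
Klf15: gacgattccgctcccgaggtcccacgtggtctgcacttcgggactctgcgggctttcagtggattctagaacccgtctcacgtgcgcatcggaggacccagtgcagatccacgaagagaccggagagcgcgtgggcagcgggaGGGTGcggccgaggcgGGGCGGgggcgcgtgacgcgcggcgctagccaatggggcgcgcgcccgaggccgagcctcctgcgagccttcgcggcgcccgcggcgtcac
The Klf2 stretch lies at chr8:72318812-72319061 on the plus strand and holds 1 CACCC box and 2 GC boxes, and the Klf4 stretch lies at chr4:55532476-55532725 on the minus strand and holds 4 GC boxes and no CACCC box. The Klf9 stretch, at chr19:23140976-23141225 on the plus strand, holds 1 CACCC box and no GC box, and the Klf15 stretch, at chr6:90462326-90462575 on the plus strand, holds 1 of each. Entries were found for 8 of the 10 members. A CACCC box was present in 6 of these 8 and in 52.0% of 32851 promoter windows of the same length, a GC box in 7 of 8 and in 32.7%, and CCAAT in 4 of 8 and in 33.8%. Direct repeats of the nuclear receptor half-site with spacers of 1, 2 or 5 bases (DR1, DR2 and DR5, the arrangements that retinoid receptors can bind) were found in 0 of the 8 windows, against 0.164%, 0.174% and 0.0883% of all windows. These matches describe letters in the windows, not binding.

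Each member had its own distribution over the cell classes, which was far wider than the difference between the libraries for most genes. Klf2 was led by endothelial-like cells, Klf4 by fibro-adipogenic progenitor (FAP)-like and endothelial-like cells, and Klf6 by macrophage-like cells. Klf9 had its lowest level in macrophage-like cells. Its highest mean was in pericyte-like cells (811 and 851 CPM), which overlapped the tenocyte-like cells next to them (700 and 827 CPM). Klf5 was concentrated in a perineurial-like class. The mean level of the highest class exceeded that of the lowest by 10.9-fold for Klf2, 8.0-fold for Klf4, 4.5-fold for Klf6, 12.0-fold for Klf9, 5.8-fold for Klf7, 6.3-fold for Klf3, 3.1-fold for Klf13 and 2.9-fold for Klf10.

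**Figure D1:**
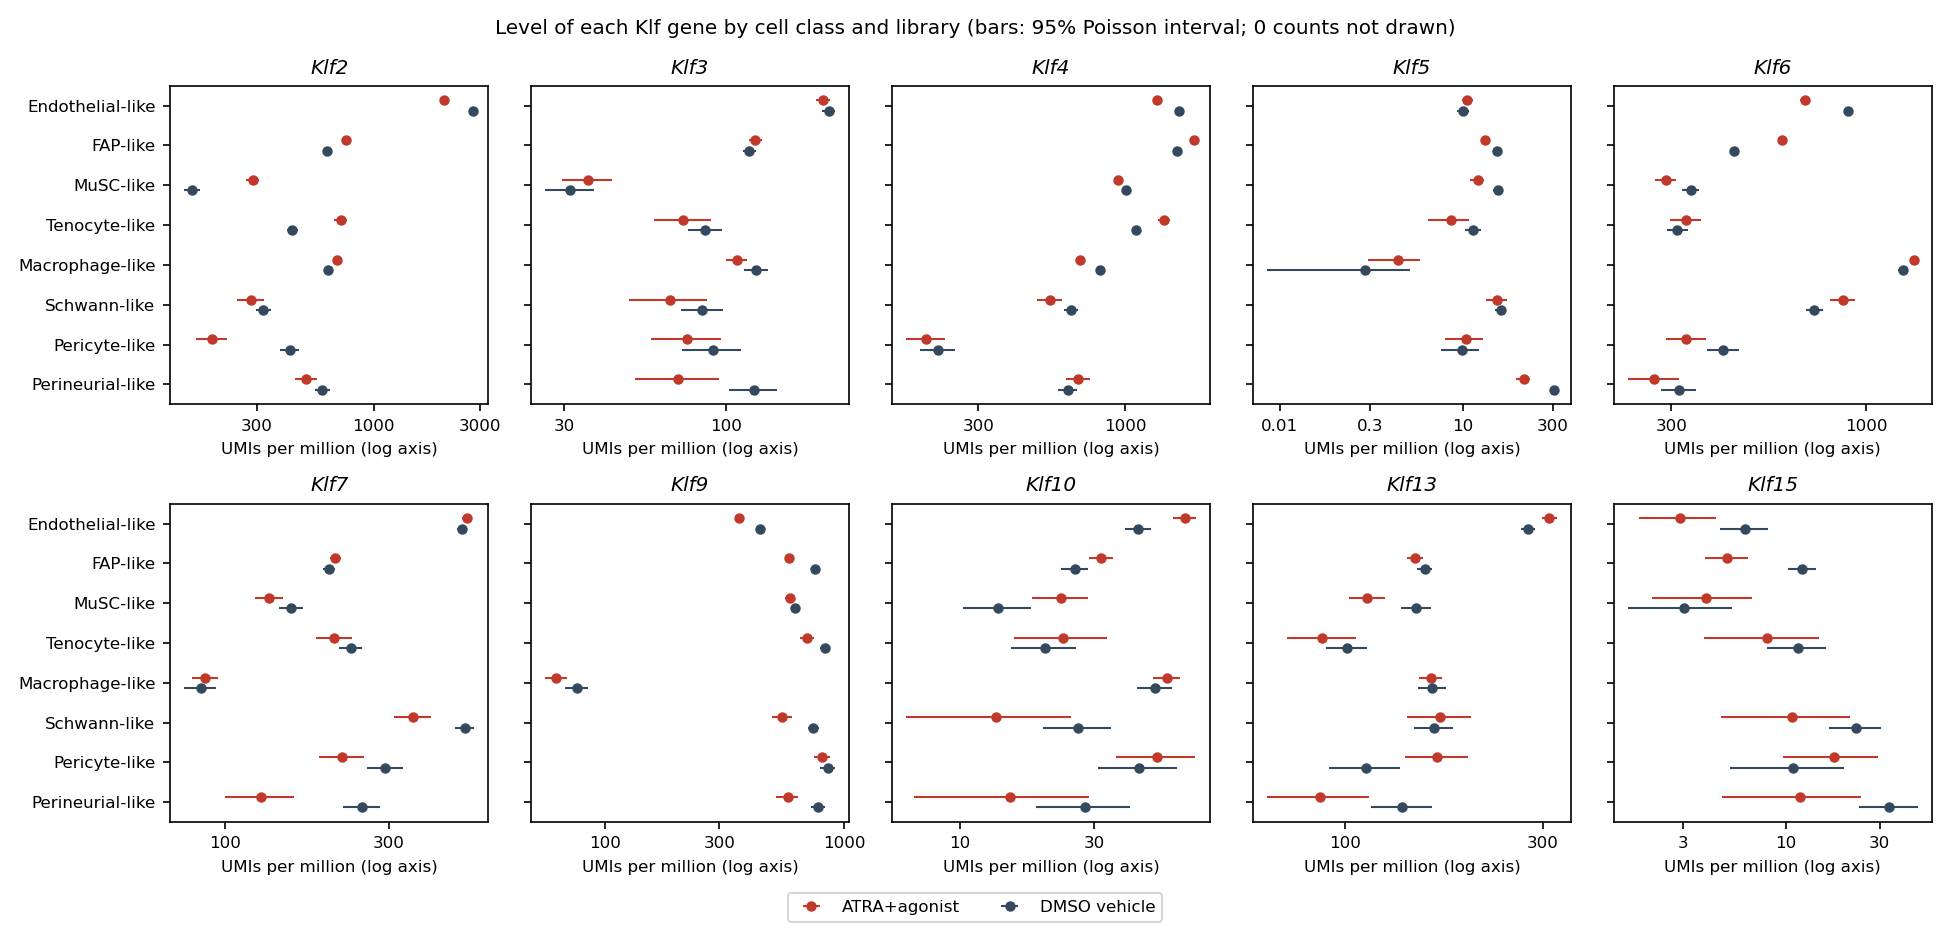
Level of each of the 10 Klf genes (x axis, CPM on a log axis, a separate scale for each gene) in the 8 compared cell classes (y axis) of the ATRA+agonist (red) and DMSO vehicle (dark blue) library, 1 library per group, with bars for the 95% Poisson interval. Klf2 is highest in endothelial-like cells of both libraries, Klf9 lowest in macrophage-like cells, and the red and blue Klf2 points change order between MuSC-like and pericyte-like cells.

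Over the 8 classes, 72 of the 80 gene and class pairs had enough UMIs to be compared. Of these, 3 were called higher and 12 lower with ATRA+agonist, and 64 pairs with 3 higher and 8 lower remained without the perineurial-like class, whose makeup differed between the libraries (below). In endothelial-like cells 0 of 10 members were called higher and 1 lower, where 5.76% and 4.61% of all genes tested were called. In FAP-like cells 0 of 10 were higher and 2 lower (background 3.12% and 6.33%), and in muscle stem cell (MuSC)-like cells 2 of 9 were higher and 1 lower (6.34% and 4.63%). Tenocyte-like cells had 1 of 9 higher and 1 lower (5.55% and 9.25%), and macrophage-like cells had 0 of 8 called in either direction (3.65% and 3.91%). Schwann-like cells had 0 of 10 higher and 2 lower (6.33% and 8.95%), and pericyte-like cells 0 of 8 higher and 1 lower (6.82% and 7.24%). In the perineurial-like class 0 of 8 were higher and 4 lower, where 7.04% and 22.4% of all genes were called.

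The median ratio of the members lay below that of all genes tested in 7 of these 8 classes. It was -0.16 against 0.08 for all genes in endothelial-like cells, -0.30 against 0.01 in Schwann-like cells, -0.20 against 0.01 in pericyte-like cells and -0.54 against -0.14 in the perineurial-like class. In FAP-like cells it was 0.06 against 0.01, and in macrophage-like cells 0.02 against 0.03. MuSC-like and tenocyte-like cells had medians of -0.09 and -0.16, against 0.04 and -0.02 for all genes. These medians join genes that moved in opposite directions within a class.

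**Figure D2:**
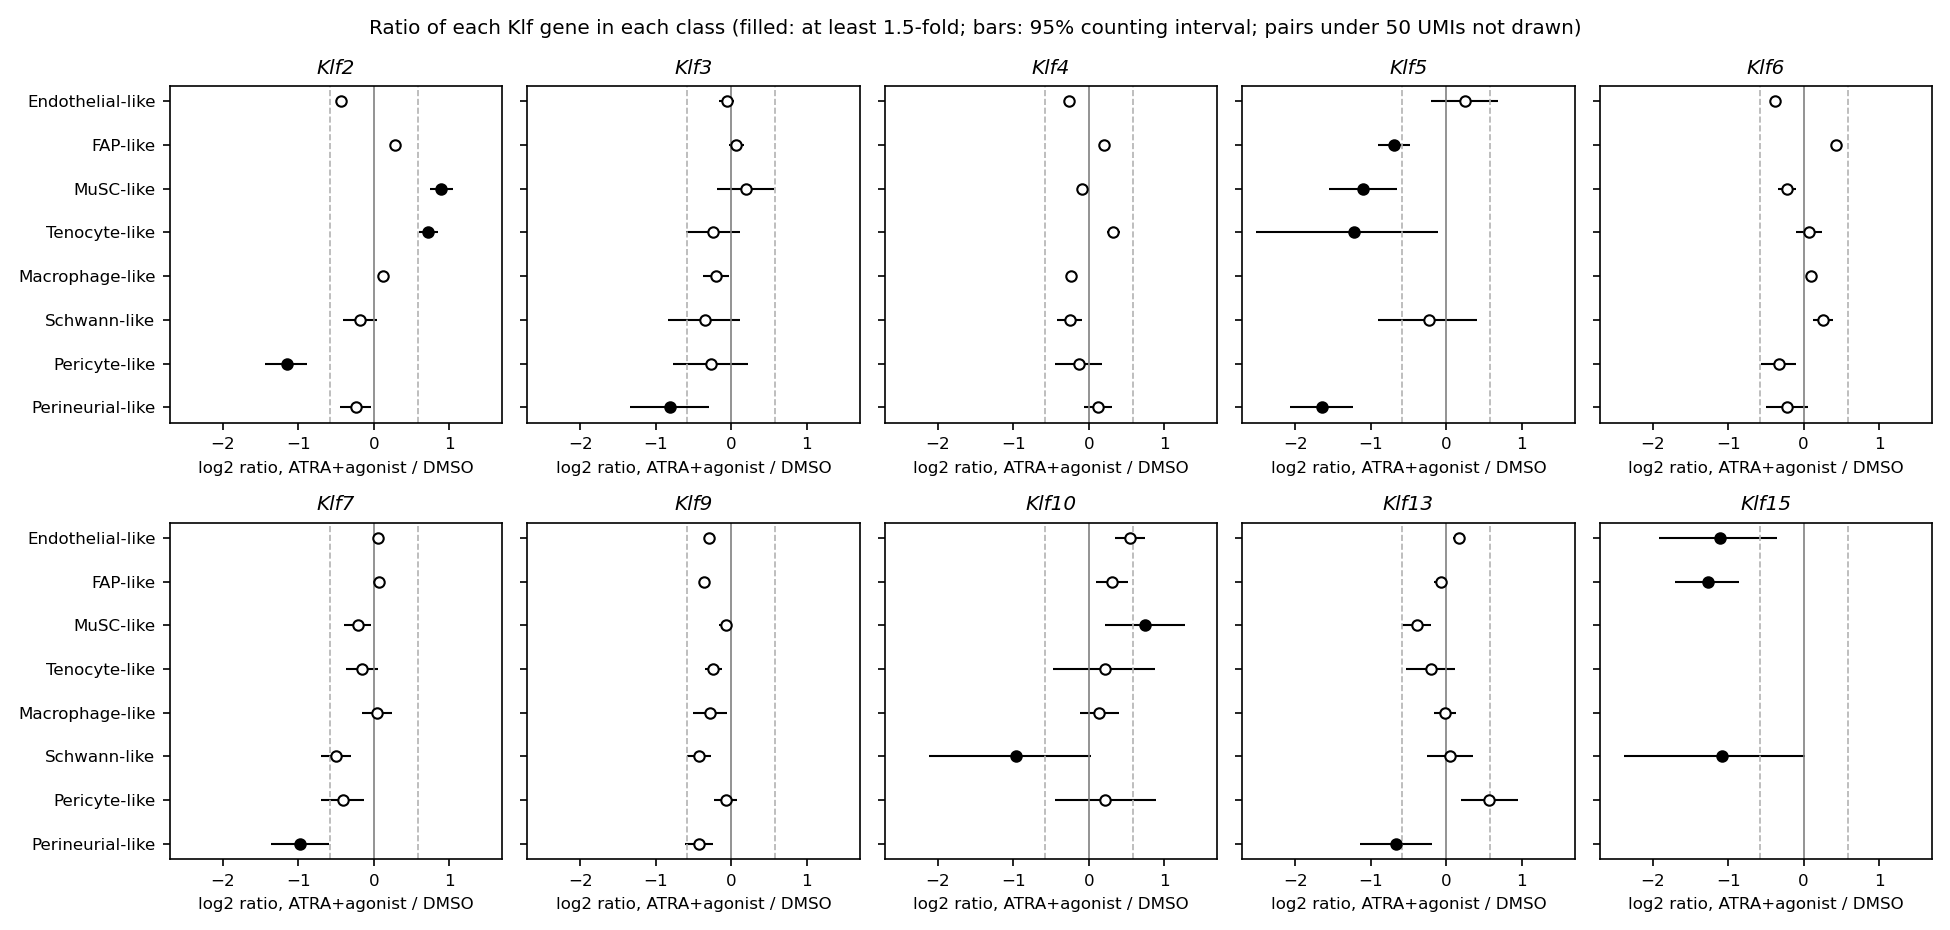
Ratio of each Klf gene between the libraries (log2, ATRA+agonist over DMSO vehicle) in the 8 compared cell classes, with bars for the 95% interval from counts and lines at 1.5-fold. Klf2 lies past 1.5-fold upward in MuSC-like (0.89) and tenocyte-like cells (0.72) and past it downward in pericyte-like cells (-1.16), while the Klf9 ratios lie below 0 in all 8 classes, a sign that other processing turned in MuSC-like, pericyte-like and perineurial-like cells.

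Klf2 (ENSMUSG00000055148, chr8:72319033-72321656, GRCm38) showed differences of opposite sign between the libraries. It was lower with ATRA+agonist in endothelial-like and pericyte-like cells and higher in MuSC-like, tenocyte-like and FAP-like cells. In MuSC-like cells its level was 288 CPM in the ATRA+agonist library (959 UMIs in 414 cells) and 155 CPM in the DMSO vehicle library (613 UMIs in 530 cells), a ratio of 0.89 (0.75 to 1.04). A Klf2 UMI was found in 51.2% and 43.0% of these cells, and in 18.8% and 11.1% of the 410 and 530 cells that could be thinned to 1000 UMIs. The 10 cells with the most Klf2 UMIs held 23.7% and 20.4% of the sum, a like share in both libraries. Red blood cell barcodes, which should hold little Klf2 of their own, had a Klf2 UMI in 3.20% and 4.31% of barcodes, but most of their UMIs are hemoglobin, so these shares are not matched in depth. Of their 691334 and 2926607 other UMIs Klf2 made up 367 and 514 CPM, above its level in MuSC-like cells, and the part of free RNA in the MuSC-like values was not tested.

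The direction in MuSC-like cells was shared by most of its sub-clusters. Klf2 was higher with ATRA+agonist in the sub-clusters led by Ccl2 (478 against 155 CPM, ratio 1.62), Myog, a factor of differentiating muscle cells (228 against 99.2 CPM, 1.20), Ifit1, an interferon-induced gene (294 against 138 CPM, 1.09), and Lmod2 (311 against 206 CPM, 0.59). The sub-cluster led by Mid1 had 4 Klf2 UMIs in all. The sub-cluster led by Pde4c, whose leading genes include the endothelial gene Pecam1, went the other way, at 103 against 214 CPM (-1.06, -1.73 to -0.43). Endothelial marker transcripts summed to 45.0 and 51.7 CPM over the whole MuSC-like class, with 8 and 9 of 9 markers detected, and to 318 and 260 CPM in the Pde4c sub-cluster.

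In tenocyte-like cells Klf2 was 714 CPM with ATRA+agonist and 433 CPM with DMSO vehicle (892 and 1280 UMIs, ratio 0.72, 0.60 to 0.85). All 5 tenocyte-like sub-clusters had a ratio above 0, between 0.08 in the one led by Pappa2 and 1.28 in the one led by Col22a1, and the Pappa2 interval (-0.20 to 0.35) included 0. FAP markers were also higher in the ATRA+agonist tenocyte-like cells (21474 against 15250 CPM), whose part was not tested. FAP-like cells themselves had 752 against 619 CPM of Klf2 (0.28, 0.24 to 0.32).

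Pericyte-like cells showed the opposite: Klf2 was 189 CPM with ATRA+agonist (151 UMIs in 187 cells) and 422 CPM with DMSO vehicle (391 UMIs in 242 cells), a ratio of -1.16 (-1.44 to -0.88). The share of cells with a Klf2 UMI was 32.1% against 52.9%, and 13.6% against 25.9% of 184 and 239 cells after thinning, at nearly equal median depths of 3878 and 3765 UMIs. The class contained a sub-cluster led by Fhl5 and one led by Sema4a, and the Fhl5 one made up 71.1% of the ATRA+agonist cells but 40.1% of the DMSO vehicle cells. Klf2 was lower with ATRA+agonist in both, at 79.2 against 190 CPM in the Fhl5 sub-cluster (-1.26, -1.87 to -0.66) and 392.3 against 542.4 CPM in the Sema4a sub-cluster (-0.47, -0.79 to -0.15). With both sub-clusters weighted equally the ratio was -0.63. Endothelial markers summed to 435 and 549 CPM in the pericyte-like cells, and whether their transcripts add to the Klf2 sum was not tested.

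**Figure D3:**
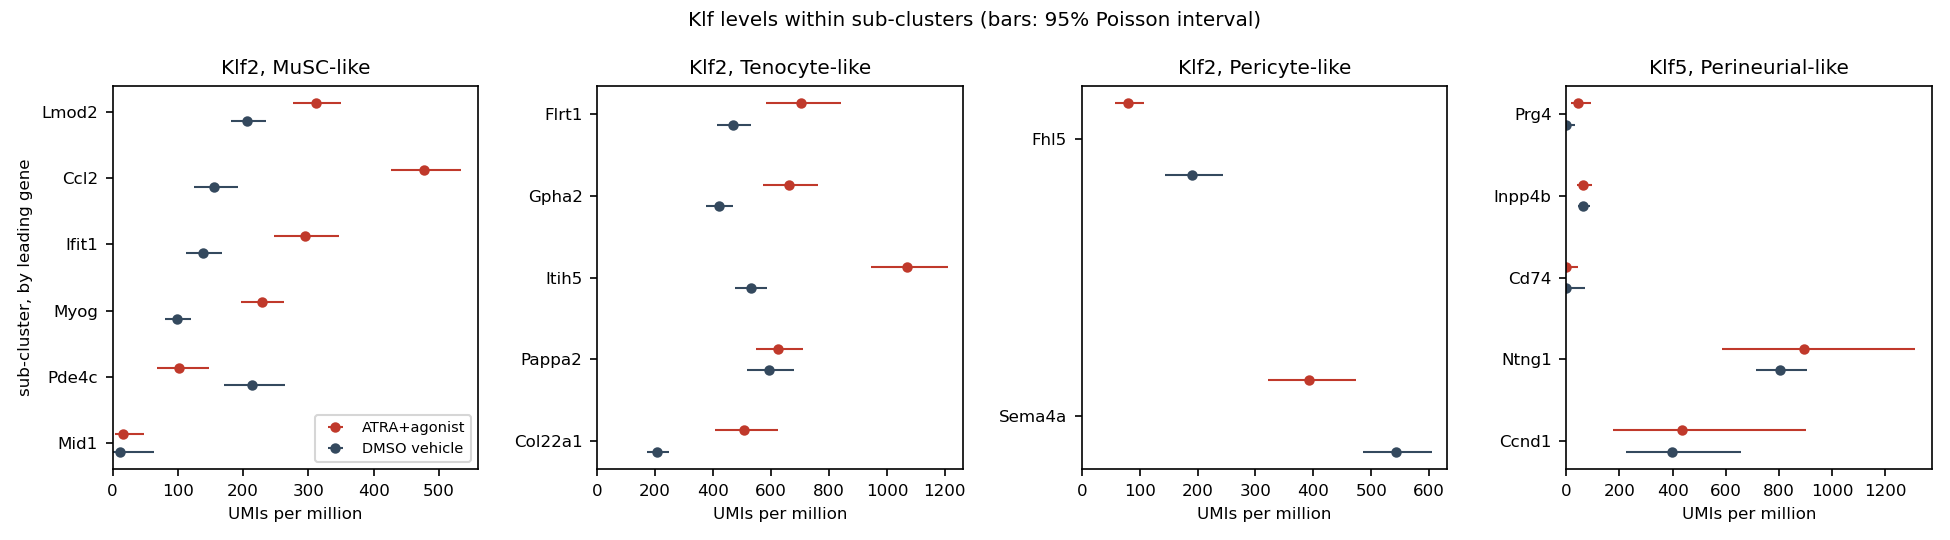
Level of Klf2 within the sub-clusters of MuSC-like, tenocyte-like and pericyte-like cells and of Klf5 within those of the perineurial-like class (x axis, CPM; y axis, sub-cluster by leading gene), in the ATRA+agonist (red) and DMSO vehicle (dark blue) library, with bars for the 95% Poisson interval. Klf2 is higher in red in 4 of 6 MuSC-like sub-clusters and lower in the one led by Pde4c, the one led by Mid1 had 4 Klf2 UMIs in all, and Klf2 is lower in red in both pericyte-like ones, while the Klf5 points of the Ntng1 sub-cluster (894 and 804 CPM) have overlapping bars.

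Endothelial-like cells had by far the highest Klf2 level of the 8 classes, at 2052 CPM with ATRA+agonist (15038 UMIs in 2556 cells) and 2769 CPM with DMSO vehicle (23233 UMIs in 2483 cells), a ratio of -0.43 (-0.46 to -0.40) that stayed within 1.5-fold. Macrophage-like cells had 686 and 628 CPM (0.13), Schwann-like cells 283 and 321 CPM (-0.18, -0.41 to 0.05) and the perineurial-like class 499 and 590 CPM (-0.24). In the order of levels, the ranges of the libraries overlapped between FAP-like, macrophage-like, tenocyte-like and perineurial-like neighbors and between pericyte-like, Schwann-like and MuSC-like neighbors, so only the endothelial lead and the step below the perineurial-like class separated.

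Klf4 (ENSMUSG00000003032, chr4:55527143-55532466), the second flow-induced member, differed less between the libraries and was called in none of the 8 classes. Its level was 1763 and 1530.0 CPM in FAP-like cells (ratio 0.20), 1301 and 1553 CPM in endothelial-like cells (-0.26) and 1374 and 1096 CPM in tenocyte-like cells (0.33). MuSC-like cells had 947 and 1009 CPM (-0.09), where Klf2 had moved to 0.89, so the pair did not move together in that class. Pericyte-like cells had the lowest Klf4 level, at 195 and 215 CPM (-0.14, -0.45 to 0.17), but the sub-clusters of this class differed in direction, with -0.91 (-1.55 to -0.27) in the Fhl5 and 0.72 (0.36 to 1.08) in the Sema4a sub-cluster. Within FAP-like cells the difference lay in the cluster led by Cxcl14 (2007 against 1530.0 CPM, 0.39), while the clusters led by Gdf10 (0.01) and Sema3c (-0.03) showed almost none.

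The genes around this pair did not show a shared shift in endothelial-like cells. Of 13 genes of the MEK5, ERK5, MEF2 and CCM pathway upstream of Klf2 and Klf4, 0 were called in either direction, with a median ratio of 0.06 against 0.08 for all genes; the largest values were Mef2c, a transcription factor that activates Klf2 (0.39), Map3k2, a kinase above MEK5 (0.32), and Heg1, a receptor of the CCM complex (-0.28). Of 11 endothelial flow-response genes 0 were called, with a median of -0.07. Among them Nos3, the endothelial nitric oxide synthase, was 139 against 113 CPM (0.31, 0.18 to 0.44) and Thbd, the anticoagulant thrombomodulin, 177 against 138 CPM (0.36, 0.24 to 0.47), opposite in sign to Klf2. Timp3, a metalloproteinase inhibitor, was 977 against 1385 CPM (-0.50).

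Endothelial-like cells were a mixture of subtypes whose shares differed between the libraries. Cells with an interferon-induced profile numbered 44 with ATRA+agonist and 1000 with DMSO vehicle, against 2257 and 1071 capillary-like, 126 and 140 arterial-like and 28 and 81 venous-like cells. Within capillary-like cells 0 of 9 members were called in either direction (background 6.73% higher and 2.47% lower), and the median ratio was -0.24 against 0.07 for all genes. Klf2 was 2003 against 2571 CPM there (-0.36, -0.40 to -0.32), Klf4 1271 against 1845 CPM (-0.54, -0.59 to -0.49) and Klf9 361 against 539 CPM (-0.58, -0.67 to -0.49). Klf4 and Klf9 thus differed more within the capillary-like cells than in the pooled endothelial-like cells (-0.26 and -0.29), with both just inside 1.5-fold. Of the flow-response genes Edn1, the vasoconstrictor endothelin, was lower in capillary-like cells (50.4 against 86.5 CPM, -0.78), while Nos3 (0.10) and Thbd (-0.08) were near equal.

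Arterial-like cells had the highest Klf2 level of the 4 subtypes, at 2763 CPM with ATRA+agonist and 3238 CPM with DMSO vehicle (-0.23, -0.32 to -0.14). There, 2 of 8 members were called higher and 0 lower (background 7.89% and 7.76%): Klf10 at 118 against 63.1 CPM (0.90, 0.36 to 1.45) and Klf13 at 349 against 228 CPM (0.61, 0.32 to 0.91). In interferon-profile cells Klf2 was 2228 against 3217 CPM (-0.53) and Klf9 592 against 430.5 CPM (0.46, 0.14 to 0.76), the reverse of its direction in capillary-like cells, though the ATRA+agonist value rests on 44 cells. Venous-like cells had 1346 against 1156 CPM of Klf2 (0.22, -0.08 to 0.50), and with 28 cells in 1 library these values are given without a call. With the 4 subtypes weighted equally the endothelial ratio was -0.29 for Klf2, -0.17 for Klf4, -0.39 for Klf6 and -0.01 for Klf9.

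**Figure D4:**
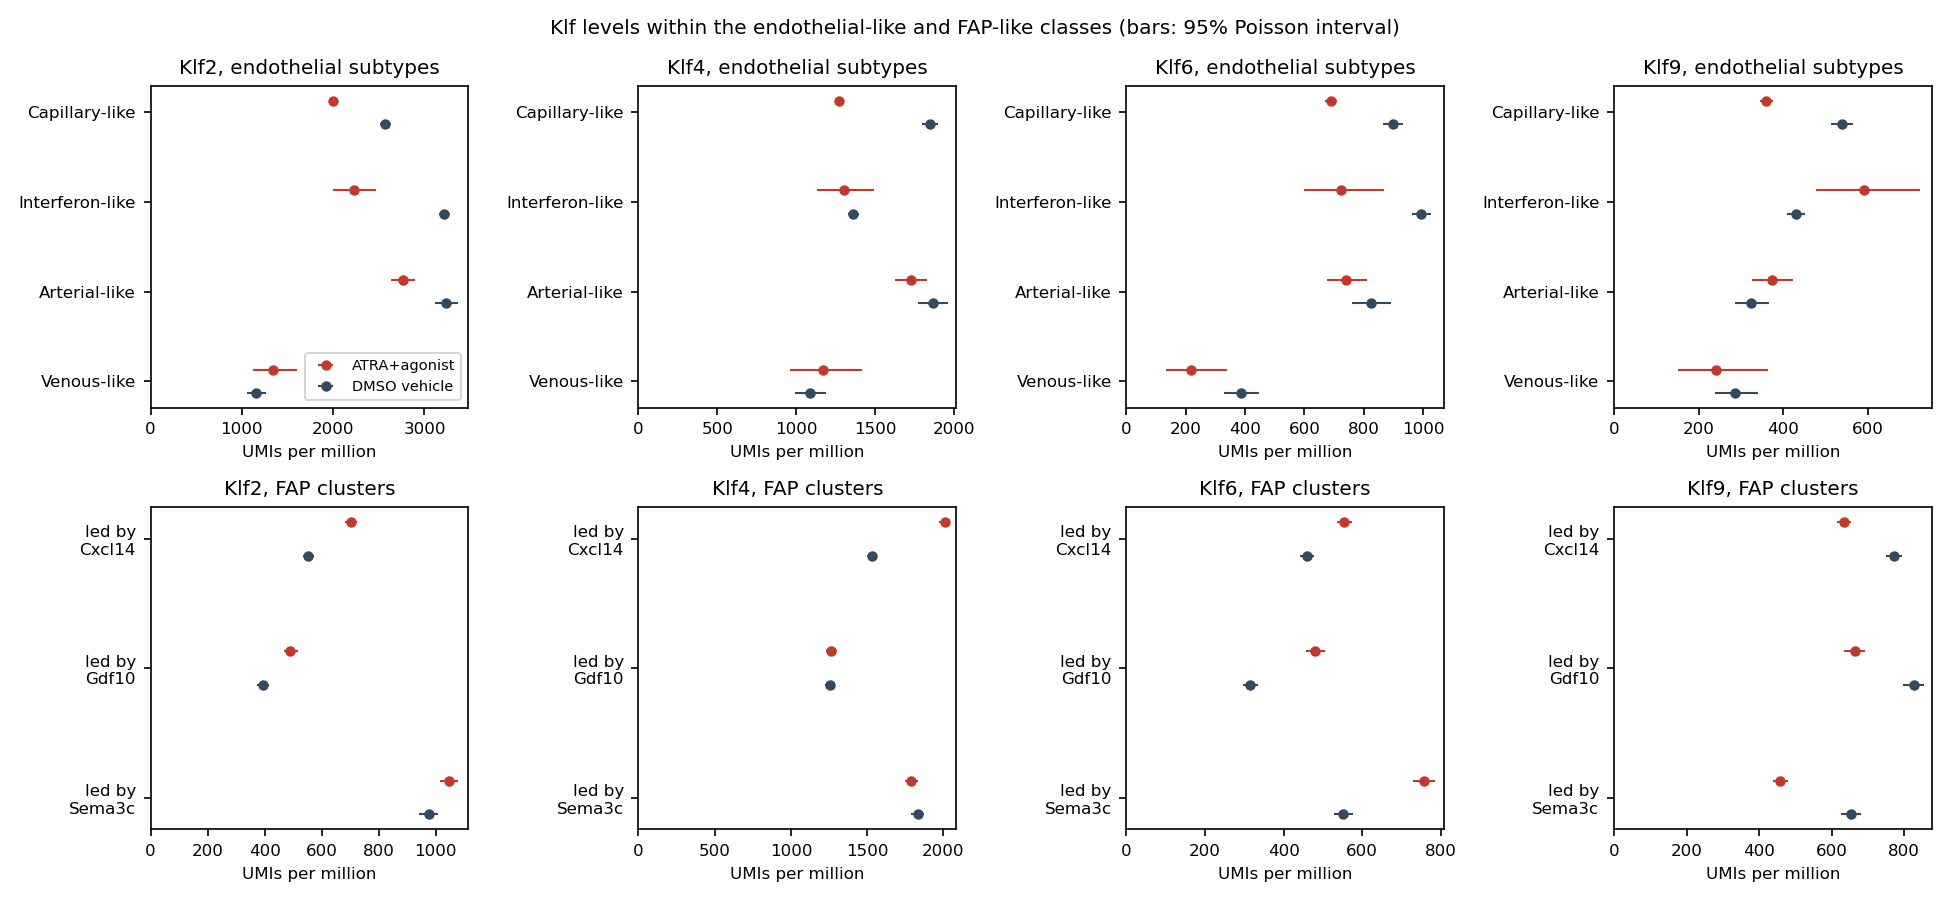
Level of Klf2, Klf4, Klf6 and Klf9 (x axis, CPM) within endothelial-like subtypes (upper panels) and FAP-like clusters (lower panels) in the ATRA+agonist (red) and DMSO vehicle (dark blue) library, with bars for the 95% Poisson interval; interferon-like marks the endothelial cells with an interferon-induced profile. Klf9 is lower in red in capillary-like cells (361 against 539 CPM) and in all 3 FAP-like clusters, and higher in red in the interferon-profile cells (592 against 430.5 CPM).

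Klf6 (ENSMUSG00000000078, chr13:5861482-5870394), an early response gene to injury and serum, was highest in macrophage-like cells (1346 and 1255 CPM, ratio 0.10) and was called in none of the 8 classes. FAP-like cells had 595 CPM with ATRA+agonist and 442 CPM with DMSO vehicle (7844 and 5807 UMIs, 0.43, 0.38 to 0.48), and all 3 FAP-like clusters shared the direction, with 0.27 in the one led by Cxcl14, 0.61 in the one led by Gdf10 and 0.45 in the one led by Sema3c. Endothelial-like cells had the opposite sign, at 684 against 894 CPM (-0.39, -0.44 to -0.33), and 3 of the 4 endothelial subtypes had an interval below 0. Schwann-like cells had 866 against 727 CPM (0.25), pericyte-like cells 328 against 413 CPM (-0.33) and MuSC-like cells 289 against 338 CPM (-0.22). The sign of the Klf6 ratio thus divided FAP-like, Schwann-like and macrophage-like cells from endothelial-like, pericyte-like and MuSC-like cells. In tenocyte-like cells (0.07) the sign turned in 2 of 14 alternatives, and in the perineurial-like class (-0.22) in 4 of 14.

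Klf9 (ENSMUSG00000033863, chr19:23141226-23168134), induced by glucocorticoids and by the circadian clock, was lower with ATRA+agonist in all 8 classes, by less than 1.5-fold in each, and 6 of the 8 intervals lay below 0. Its sign turned in 3 classes under other processing, to 0.10 in MuSC-like and 0.35 in pericyte-like cells after thinning and to 0.32 in perineurial-like cells with 15% of cells removed as doublets. The levels were 590.0 against 756 CPM in FAP-like cells (-0.36, -0.40 to -0.31), 551 against 742 CPM in Schwann-like cells (-0.43, -0.59 to -0.27), 363 against 445 CPM in endothelial-like cells (-0.29) and 700 against 827 CPM in tenocyte-like cells (-0.24). In macrophage-like cells, the class with the lowest level, it was 62.5 against 75.9 CPM (-0.28, -0.50 to -0.06). Of the other UMIs of red blood cell barcodes, Klf9 made up 116 CPM with ATRA+agonist and 243 CPM with DMSO vehicle. Both lie above the macrophage-like levels, and the part of free RNA in the Klf9 values was not tested. The intervals of MuSC-like (591 against 622 CPM, -0.07) and pericyte-like cells (811 against 851 CPM, -0.07) included 0. A Klf9 UMI was found in 94.6% and 96.9% of FAP-like cells, at median depths of 9903 and 8012 UMIs, against 37.6% and 43.0% of macrophage-like cells at 10862 and 9610 UMIs. The 3 FAP-like clusters led by Cxcl14, Gdf10 and Sema3c had ratios of -0.28, -0.32 and -0.51.

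Klf15 (ENSMUSG00000030087, chr6:90462576-90475238), the second glucocorticoid-induced member, was sparse in every class, with at most 33.6 CPM. It was called lower with ATRA+agonist in FAP-like cells, at 5.004 against 12.09 CPM (66 and 159 UMIs, -1.27, -1.71 to -0.85), and a UMI was found in 4.87% and 9.17% of those cells. The FAP-like clusters led by Cxcl14 (-1.34), Gdf10 (-1.29) and Sema3c (-0.71, -2.21 to 0.70) shared the sign. Endothelial-like cells had 21 and 52 UMIs (2.866 against 6.197 CPM, -1.11, -1.92 to -0.36), but the ratio was 0.69 with the 4 subtypes weighted equally. In the ATRA+agonist library that weighting gives 28 venous-like and 44 interferon-profile cells each the weight of 2257 capillary-like cells. On so few UMIs the part of subtype makeup cannot be told from counting error. Schwann-like cells had 8 and 45 UMIs (-1.08) with an interval from -2.38 to 0.02. In macrophage-like cells 0 Klf15 UMIs were found in 519 and 402 cells, which allows up to 0.515 and 0.742 CPM at 3 counts.

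A list of 18 glucocorticoid-induced genes, which holds neither Klf9 nor Klf15, had a median ratio below 0 in every compared class, with 0 genes called higher in any of the 8. In FAP-like cells 10 of 17 tested were called lower (median -0.68), in pericyte-like cells 9 of 13 (-0.95), in Schwann-like cells 8 of 15 (-0.65) and in tenocyte-like cells 6 of 16 (-0.50). Macrophage-like cells had 4 of 14 lower (-0.44), endothelial-like cells 4 of 16 (-0.36), MuSC-like cells 4 of 15 (-0.16) and the perineurial-like class 5 of 14 (-0.49). Within capillary-like cells 6 of 15 were called lower and 1 higher (median -0.20, background 2.47% lower and 6.73% higher). Of all genes tested, 22.4% were called lower in the perineurial-like class. In the other classes this share lay between 3.91% (macrophage-like) and 9.25% (tenocyte-like). Fkbp5, a chaperone that tracks glucocorticoid receptor activity, was lower in all 8 classes, from -0.87 in Schwann-like to -1.83 in perineurial-like cells, as was Tsc22d3, the glucocorticoid-induced leucine zipper, from -0.52 in endothelial-like to -1.24 in Schwann-like cells.

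The clock gene Per1 had less even values, from -1.01 in Schwann-like to 0.39 (0.03 to 0.75) in MuSC-like cells. Zbtb16, a zinc-finger factor induced by glucocorticoids, was 167 against 395 CPM in FAP-like cells (-1.24) and 62.1 against 266 CPM in endothelial-like cells (-2.10). The Klf9 ratio had the sign of the median of this list in all 8 classes, apart from the alternatives named above. It had a smaller size than that of Fkbp5 in each. Both were negative throughout, so the shared sign does not tell the classes apart. The sizes did not match in every class. Klf9 was -0.07 both in pericyte-like cells, with the lowest list median (-0.95), and in MuSC-like cells, with the highest (-0.16). Klf15 in pericyte-like cells was 17.5 against 10.8 CPM, on too few UMIs to be compared. Of 9 Klf15 metabolic targets 7 were tested in FAP-like cells, with 1 called lower and 0 higher (median -0.06), 6 in tenocyte-like cells, with 1 lower and 0 higher (0.03), and 7 in endothelial-like cells, with 0 called in either direction (0.07). The gene called in FAP-like and tenocyte-like cells was Prodh, the proline dehydrogenase, at 2.27 against 5.17 CPM in FAP-like cells (-1.19) and 5.60 against 23.3 CPM in tenocyte-like cells (-2.06, -3.42 to -0.94). Other targets were called lower elsewhere. Schwann-like cells had 1 of 5 lower (Cpt1a, -0.63, -1.43 to 0.11, background 8.95%) and macrophage-like cells 1 of 4 (Fbxo32, -0.63, background 3.91%). The perineurial-like class had 2 of 3 lower (Prodh, -3.33, and Hadha, -0.60, background 22.4%).

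**Figure D5:**
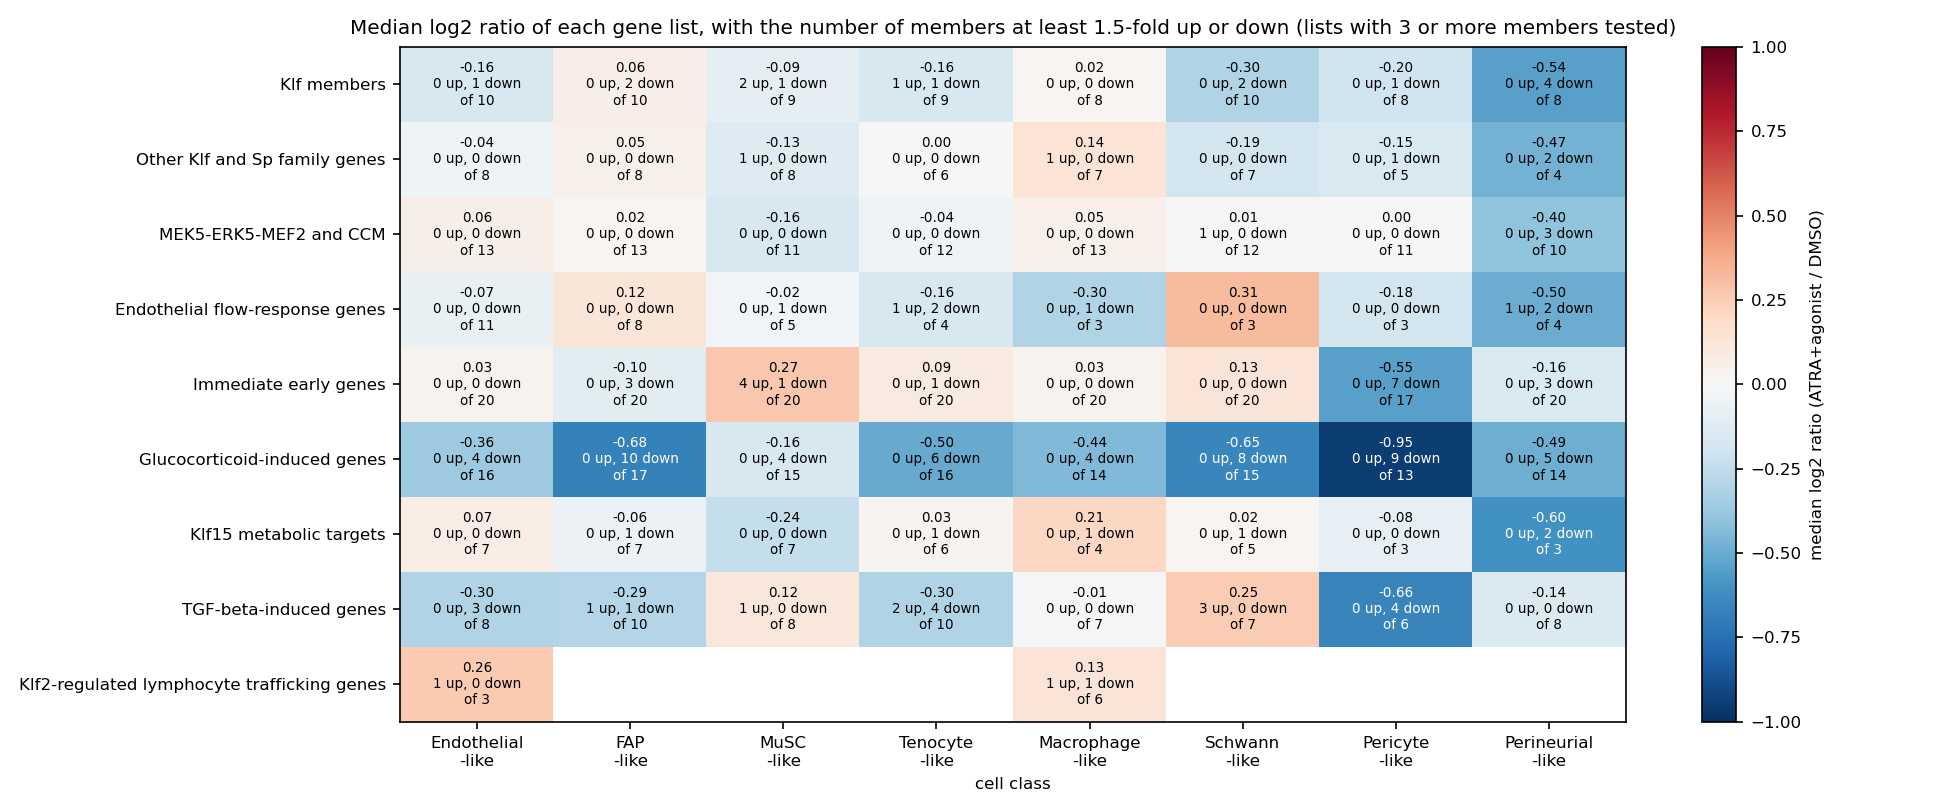
Median log2 ratio (ATRA+agonist over DMSO vehicle, color and first line of each cell) of the Klf members and of related gene lists in the 8 compared classes, with the number of genes called higher and lower of those tested. The glucocorticoid-induced row has 0 genes up in all 8 classes and 4 to 10 down. The immediate early genes have 4 up in MuSC-like cells, 7 down in pericyte-like cells and 3 each down in FAP-like and perineurial-like cells.

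The 20 immediate early genes are transcripts that rise within minutes of a stimulus and during tissue dissociation. Their median ratio had the sign of Klf2 in MuSC-like, pericyte-like, tenocyte-like, macrophage-like and perineurial-like cells. It had the opposite sign in FAP-like, Schwann-like and endothelial-like cells. The sign of Klf2 itself was not stable in 2 of these classes. It turned in 6 of 14 alternatives in the perineurial-like class (0.69 with sub-clusters weighted equally) and in 2 of 14 in Schwann-like cells. In MuSC-like cells 4 of the 20 were called higher and 1 lower (median 0.27, background 6.34% and 4.63%). Among them were Fos (4117 against 2108 CPM, 0.97), Btg2 (0.80) and Jun (0.66), with Egr1 at 0.49. In pericyte-like cells 7 of 17 were called lower and 0 higher (median -0.55, background 7.24% lower and 6.82% higher). Dusp1, a phosphatase of MAP kinases, was at -0.98, Nr4a1 at -0.83, Ier2 at -0.81, Fos at -0.56 and Egr1 at -0.44. Tenocyte-like cells, where Klf2 was also higher, had 0 called higher and 1 lower of 20 (median 0.09, Fos 0.21). Endothelial-like cells had 0 called in either direction (median 0.03, Fos 0.12, Egr1 -0.01). In FAP-like cells, where Klf2 was 0.28, 0 were called higher and 3 lower of 20 (median -0.10, background 3.12% and 6.33%). Schwann-like cells had 0 called (median 0.13), with Klf2 at -0.18, and macrophage-like cells 0 called (median 0.03). The perineurial-like class had 0 higher and 3 lower (median -0.16, background 7.04% and 22.4%). The part that handling of the tissue had in these values was not tested.

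Klf10 (ENSMUSG00000037465, chr15:38291463-38300706), the early target of TGF-beta, was low in all classes, with mean levels between 18.2 CPM in MuSC-like and 52.8 CPM in endothelial-like cells. In MuSC-like cells it was called higher, at 22.8 against 13.6 CPM (76 and 54 UMIs, 0.74, 0.22 to 1.27). This difference lay mostly in the sub-cluster led by Myog, with 35 and 14 UMIs (41.6 against 13.5 CPM, 1.63, 0.69 to 2.63), and after thinning the class ratio was -0.31. Endothelial-like cells had 62.6 against 42.9 CPM (0.55, 0.34 to 0.75) and FAP-like cells 31.6 against 25.6 CPM (0.31, 0.10 to 0.52). The endothelial-like ratio ran from 0.07 to 0.83 under other processing. Within capillary-like cells 0 of the 9 members tested had an interval above 0. Klf10 was called lower in Schwann-like cells on 10 and 52 UMIs (-0.97), with an interval from -2.11 to 0.02.

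The median ratio of the 10 TGF-beta-induced genes had the opposite sign to Klf10 in 6 of the 7 classes where Klf10 had at least 50 UMIs, with MuSC-like cells (0.12) the exception and macrophage-like cells near 0 (-0.01). In 4 of these 7 classes (tenocyte-like, macrophage-like, Schwann-like and pericyte-like) the Klf10 interval included 0, so the counts do not fix its sign there. In tenocyte-like cells its sign also turned in 2 settings of other processing. Endothelial-like cells had 3 of 8 called lower and 0 higher (median -0.30, background 4.61% lower and 5.76% higher), with Pmepa1, a feedback inhibitor, at -0.94. Klf10 was 0.55 in this pooled class, but its interval did not lie above 0 within capillary-like cells. Schwann-like cells had 3 of 7 called higher (median 0.25, background 6.33%), with Tgfbi at 1.496 and the matricellular genes Ccn1 at 0.94 and Ccn2 at 0.75, while Klf10 was -0.97. In pericyte-like cells 4 of 6 were called lower (median -0.66, background 7.24%) and Klf10 was 0.22 (-0.45 to 0.89).

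Klf5 (ENSMUSG00000005148, chr14:99298691-99315036), a factor of epithelia and smooth muscle, was sparse outside the perineurial-like class. It was called lower with ATRA+agonist in MuSC-like cells, at 17.7 against 37.9 CPM (59 and 150 UMIs, -1.10, -1.56 to -0.65), and the sub-clusters led by Lmod2 (-1.75) and Myog (-0.99) had intervals below 0. In FAP-like cells it was 23.0 against 37.2 CPM (303 and 489 UMIs, -0.70, -0.91 to -0.49), and with the 3 clusters weighted equally the ratio was -0.47, inside 1.5-fold. Most of that sum came from the cluster led by Gdf10, with 76.5 against 94.3 CPM (-0.30), whereas the clusters led by Cxcl14 (5.05 against 12.1 CPM, -1.26) and Sema3c (6.78 against 16.0 CPM, -1.24) had the larger ratios on fewer UMIs. Tenocyte-like cells had 8 and 44 UMIs (6.404 against 14.9 CPM, -1.22, -2.51 to -0.11). In red blood cell barcodes Klf5 made up 4.34 CPM (ATRA+agonist, 3 UMIs) and 12.98 CPM (DMSO vehicle, 38 UMIs) of the UMIs other than hemoglobin. The levels of the tenocyte-like cells and of the Cxcl14 and Sema3c clusters lie close to these values. The part of free RNA in the Klf5 values was not tested. Schwann-like cells, with the second highest level, had 36.3 and 42.4 CPM (-0.23, -0.91 to 0.41). A Klf5 UMI was found in 11.4% and 16.7% of FAP-like cells, against 0.578% and 0.249% of macrophage-like cells at median depths of 10862 and 9610 UMIs.

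The perineurial-like class had 100 CPM of Klf5 with ATRA+agonist and 313 CPM with DMSO vehicle (60 and 326 UMIs, -1.64, -2.06 to -1.24), but it was not the same mixture of cells in both libraries. Its perineurial markers, which include Cldn1 and Itgb4 of the nerve sheath, summed to 949 against 2497 CPM, its macrophage markers to 2095 against 530 CPM, and its median depth was 1639 against 3552 UMIs. Clustered again, it fell into 5 sub-clusters. The one led by Ntng1, with the highest perineurial marker sum, held 7 and 58 cells, the one led by Cd74, with macrophage genes, 60 and 26, the one led by Prg4 71 and 53, the one led by Inpp4b 41 and 66 and the one led by Ccnd1 10 and 25.

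Within these sub-clusters the Klf5 levels of the libraries were close. They were 894 and 804 CPM in the Ntng1 sub-cluster (0.15, -0.49 to 0.74), 437 and 399 CPM in the Ccnd1 one (0.13) and 63.6 and 62.9 CPM in the Inpp4b one (0.02, -0.87 to 0.87), and 0 UMIs were found in the Cd74 one. Only the Prg4 sub-cluster differed, with 7 and 0 UMIs. With sub-clusters weighted equally the class ratio of Klf5 was 0.19 in place of -1.64. Klf3 (-0.81), Klf7 (-0.97) and Klf13 (-0.66) were also called lower in the pooled class, and their equally weighted ratios were 0.14, -0.17 and -0.47. Klf5 stood among the 10 leading genes of this class although it had no part in the clustering.

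Klf3, Klf7 and Klf13 were each highest in endothelial-like cells, and in the other 7 classes than the perineurial-like one 0 of their ratios were called. Klf3 (ENSMUSG00000029178, chr5:64803388-64832901), a repressor, was 206 and 215 CPM in endothelial-like cells (-0.06, -0.16 to 0.04) and lowest in MuSC-like cells at 35.7 and 31.3 CPM (0.19). Klf7 (ENSMUSG00000025959, chr1:64029447-64122282) had 507 and 489 CPM in endothelial-like cells (0.05) and overlapping levels in Schwann-like cells, where it was lower with ATRA+agonist, at 352 against 498 CPM (262 and 985 UMIs, -0.50, -0.70 to -0.30).

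Klf13 (ENSMUSG00000052040, chr7:63886351-63938915), a factor of lymphocytes and other tissues, was 167 against 112 CPM in pericyte-like cells (133 and 104 UMIs, 0.57, 0.19 to 0.95), just inside 1.5-fold, and 113 against 148 CPM in MuSC-like cells (-0.39, -0.58 to -0.20). Under other processing the pericyte-like ratio ran from -0.39 to 0.63, with 1 value of the other sign. Endothelial-like cells had 311 and 276 CPM (0.17). The other 16 Klf and Sp family genes of the same zinc-finger group were mostly sparse, with 4 to 8 of them tested per class. In the perineurial-like class 2 of 4 were called lower, where 22.4% of all genes were. At most 1 was called in any other class, where 3.12% to 9.25% of all genes were called in each direction.

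Classes with under 100 cells in a library are given as levels only. B cell-like cells (641 and 66) had 536 and 416 CPM of Klf2, which holds these cells in a resting state, and T or NK cell-like cells (309 and 97) had 317 and 241 CPM. Klf13 was 279.6 and 230.2 CPM in T or NK cell-like cells. Of 8 lymphocyte trafficking genes that Klf2 regulates, 6 were tested in macrophage-like cells, with 1 called higher and 1 lower (background 3.65% and 3.91%). These were Cd69, an early activation marker (0.97), and the chemokine receptor Cxcr4 (-0.96). In endothelial-like cells Cxcr4 was called higher (1.12, 1 of 3 tested, background 5.76%), but not within capillary-like cells (0.28). Itgb7, the 1 gene tested in tenocyte-like and perineurial-like cells, was called lower in both (-1.05 and -2.04, background 9.25% and 22.4%). Smooth muscle-like cells (40 and 83) had 671 and 641 CPM of Klf2 and 390.2 and 700.1 CPM of Klf4.

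Over the 16 class and library sums, the level of Klf2 correlated most with that of Klf3 among the members (Pearson r = 0.87), and Klf15 with Klf5 (0.72) and Klf9 (0.71), while Klf6 and Klf9 had the most negative value (-0.77). Among 11448 genes the profiles most like Klf2 were those of Idnk (0.94), Sec14l1 (0.92) and Tapbp (0.91), those most like Klf9 were Parva (0.99), Nedd4 (0.98) and Ryk (0.97), and those most like Klf4 were Pnp (0.88), Tor1aip1 (0.86) and Jup (0.80). The remaining members had best values between 0.89 for Klf5 and 0.95 for Klf13. The sums share 2 libraries and 8 classes, so these values describe which classes hold a gene.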

How the data were processed

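Single-cell RNA-Seq of 2 libraries (10x Genomics 3-prime chemistry) was used as deposited. The authors aligned reads to mm10 and counted UMIs per gene and barcode with Cell Ranger 7.2.0, and the deposited values are raw counts. The annotation release is not given in the sources used here. Cells with 300 to 5000 genes, under 20% mitochondrial and under 0.25% Hbb- UMIs were kept, and the 7.5% with the highest artificial-doublet score were removed per library, after the study's methods. Libraries were merged without batch correction, and Louvain clustering (2000 genes, 30 components, 20 neighbors, resolution 0.8) left out the 113 genes of the Klf and related lists. Clusters were named "-like" by at least 3 markers at 2-fold. Naming thresholds and sub-clusters (resolution 0.6) were chosen with the clusters in view, and names are rebuilt, not the authors'. UMIs were summed per class and library. Intervals are exact Poisson for levels and conditional binomial for ratios (scipy 1.17.1, Python 3.11.15, igraph 0.11.9), and the interval step was tested on simulated data. With 1 library per group no test was run. All 10 members are named, and of each list and class at most the 3 genes with the largest absolute ratio and 50 UMIs, plus Fkbp5, Tsc22d3, Per1, Fos, Egr1, Nos3 and Thbd. The members, lists and rules were chosen with earlier results of these data known. Gene positions are from GENCODE M21 (GRCm38).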

Additional observations from a re-analysis of the deposited data

Results flagged for a closer look

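Klf2 differed in direction between classes: its log2 ratio was 0.89 in MuSC-like cells and -1.16 in pericyte-like cells, and both intervals excluded 0. Klf13 was 0.57 in pericyte-like cells and -0.66 in the perineurial-like class, whose cell makeup differed between the libraries. Neither end kept its sign under other processing. The pericyte-like ratio ran from -0.39 to 0.63, with 1 value of the other sign, and the perineurial-like ratio from -1.65 to 0.12, with 3. With 1 library per group neither difference between classes was tested.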

How the results depend on the processing

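No paired analysis was possible because each group has 1 library, and no library could be left out for the same reason. Intervals cover counting error only. Of 1007 recomputed ratios (72 gene and class pairs, 15 alternatives), 69 had the other sign, over 30 pairs; 11 of these belonged to 6 of the 15 called pairs. Apart from those 11, 805 stayed within the counting interval and 191 moved beyond it; the causes were not tested. In the perineurial-like class, the Klf13 ratio became 0.016 without doublet removal, 0.12 with 15% of cells removed as doublets and 0.11 without a maximum of genes, Klf7 became 0.029 without the hemoglobin filter and 0.0094 with cells assigned by their own markers, Klf3 became 0.67 at resolution 0.4, 0.25 with cells assigned by markers and 0.14 with sub-clusters weighted equally, and Klf5 became 0.19 with that weighting. Klf10 in MuSC-like cells became -0.31 with cells thinned to 1000 UMIs, and Klf15 in endothelial-like cells 0.69 with subtypes weighted equally. The equal weights of clusters and sub-clusters other than the endothelial subtypes, leaving out the perineurial-like class, and clustering mixed clusters once more were chosen after seeing the data.

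Klf2 kept its sign in all alternatives run in MuSC-like (0.32 to 1.09), tenocyte-like (0.53 to 0.80), pericyte-like (-1.36 to -0.55) and endothelial-like cells (-0.75 to -0.29), as did Klf6 (0.36 to 0.43), Klf9 (-0.40 to -0.34), Klf5 (-0.71 to -0.11) and Klf15 (-1.40 to -0.06) in FAP-like cells. Klf9 turned sign in MuSC-like (0.10) and pericyte-like cells (0.35) after thinning, in pericyte-like cells also with mean log-normalized values (0.024), and in perineurial-like cells with 15% of cells removed as doublets (0.32) and at a mitochondrial limit of 10% (0.11). Klf5 in FAP-like cells was inside 1.5-fold with clusters weighted equally (-0.47). The end of the ranges above nearest 0 includes differences of mean log-normalized values, a compressed scale on which no calls were counted.

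The number of pairs called higher was 5 without doublet removal and 5 without a maximum of genes, and 0 at 2-fold. The number called lower was 7 without doublet removal, 5 after thinning and 6 with a minimum of 200 UMIs. It was 7 at 2-fold and 8 without the perineurial-like class. The minimum of UMIs also applied to the thinned sums, so sparse pairs could drop out untested. The lower count after thinning, and those per class below, do not by themselves show changed ratios. Called members per class were 2 in endothelial-like and 0 in perineurial-like cells without doublet removal, 2 in perineurial-like cells with 15% removed, 2 each in pericyte-like and perineurial-like cells without the hemoglobin filter, and 1 in macrophage-like and 2 in pericyte-like cells at a mitochondrial limit of 10%. They were 1 in Schwann-like cells with a minimum of 500 genes; 2 in endothelial-like, 1 in FAP-like and 2 in pericyte-like cells without a maximum; 2 in pericyte-like cells at resolution 0.4; 8 in perineurial-like cells with the listed genes kept for clustering; and 1 in tenocyte-like and 2 in pericyte-like cells with cells assigned by markers. After thinning, with sparse pairs possibly untested, called members were 0 in endothelial-like, 1 each in MuSC-like, tenocyte-like and Schwann-like and 2 in perineurial-like cells. They were 2 in pericyte-like cells with a minimum of 10 UMIs; 0 in endothelial-like and Schwann-like, 1 in tenocyte-like and 2 in perineurial-like cells with a minimum of 200; and 1 each in FAP-like, MuSC-like, tenocyte-like, Schwann-like and perineurial-like cells at 2-fold.

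The median member ratio of the perineurial-like class was -0.16 without doublet removal, 0.22 with 15% removed, -0.010 without the hemoglobin filter, 0.024 at a mitochondrial limit of 10%, -1.18 with a minimum of 500 genes, -1.22 at resolution 1.6 and -1.47 with the listed genes kept. It was -0.27 in endothelial-like cells with 15% removed and -0.20 in MuSC-like cells without a maximum of genes. After thinning it was -0.33 in endothelial-like, 0.0082 in MuSC-like, 0.16 in FAP-like and -0.32 in macrophage-like cells.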
